A study of Mus musculus with 12 samples.

Results

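The response of macrophages to IL-4 in a soft matrix was compared between 4 libraries with IL-4 and 4 libraries without it, which are 8 of the 12 libraries of the series. They were chosen by their labels, as all libraries of BMDM (macrophages grown in culture from mouse bone marrow) in the soft hydrogel, with the 2 labelled genotypes pooled and the genotype kept as a block in the model. The study asked how the stiffness of the matrix and the kinase CaMKK2 shape macrophage activation, and IL-4 in the soft matrix served it as the reference for alternative activation. The other 4 libraries, from the stiff matrix, took no part in this comparison and entered only an alternative model of all 12 libraries. The groups were WT soft and WT soft+IL-4, from C57Bl/6 mice, and KO soft and KO soft+IL-4, from mice that lack Camkk2 in the germline (Camkk2-/-), with 2 libraries each, described as biological replicates. The mice were males and females of 8 to 10 weeks. All the cells shared the same medium with M-CSF from L929 cells, a soft gel of collagen and hyaluronic acid, 48 h of culture and release from the gel by collagenase, so the control libraries also carry these. The IL-4 dose of the sequenced cultures is not given in the sources used here.

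IL-4 is a cytokine of type 2 immunity. It binds the receptor chain IL-4Rα, which pairs with the common γ chain or with IL-13Rα1, and the kinases JAK1 and JAK3 or TYK2 then phosphorylate the transcription factor STAT6. In mouse macrophages this program, known as alternative or M2 activation, is recognised by arginase, chitinase-like and resistin-like proteins, the mannose receptor and a set of chemokines, and in some settings by fusion of the cells into multinucleated giant cells.

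Values are TPM (transcripts per 1000000, reads divided by gene length and scaled to the same total in each library), as the authors deposited them. Each library sums to 1000000 over the 14098 genes listed, the depth of a library is unknown, and a gene at 0 is only listed at 0. Libraries numbered 1 had more genes at 0 (11.7% to 13.4%) than libraries numbered 2 (5.90% to 7.54%). Of 10 macrophage markers, Csf1r, the M-CSF receptor, was at 1701 to 1986 TPM without IL-4 and at 1305 to 1404 TPM with it. Adgre1 was at 886 to 1102 TPM and at 460 to 524 TPM. The lysosomal protein gene Cd68 was at 1813 to 2123 TPM over the 8 libraries. The phagocytic receptor gene Mertk had the lowest level, at 6.65 to 23.0 TPM. Camkk2 itself (chromosome 5, 122731170 to 122779409, minus strand, GRCm38) had 44.2 TPM in WT soft 1 and 11.7 TPM in WT soft 2. In KO soft 1 it reached 46.6 TPM and in KO soft 2 only 11.5 TPM. With IL-4 both WT libraries held more of it (30.5 and 29.8 TPM) than both KO libraries (11.5 and 8.54 TPM). The libraries labelled WT soft 2 and KO soft 1 thus go against their genotype labels. Each condition holds 2 libraries of each label, and the DE counts of the gene lists are also given without these libraries where they differ. Since RNA was taken from bulk cultures, fewer cells expressing a gene and less of its RNA per cell cannot be told apart.

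IL-4 raised the classical genes of alternative activation (Arg1, Chil3, Retnla, Mgl2, Ccl17, Ccl24), the feedback inhibitors Socs1 and Cish, the fusion gene Ocstamp and the transcription factor Irf4. It lowered the receptors Cx3cr1 and Fpr2, the lipopolysaccharide co-receptor Cd14, Tlr2, 9 of 15 tested inflammatory cytokines and CXC chemokines and 19 of 71 tested interferon-stimulated genes. Of 10983 genes tested, 519 (4.73%) were differentially expressed (DE), meaning a Benjamini-Hochberg adjusted p under 0.05 in limma and a log2 fold change of 1 or more in either direction. Of these, 226 (2.06%) were higher and 293 (2.67%) lower with IL-4. A log2 fold change here is on the log2(TPM + 1) scale, on which changes of genes of a few TPM look smaller than they are. At any size of change 3943 genes (35.9%) passed the adjusted p, and in 4107 genes (37.4%) the 4 libraries with IL-4 did not overlap the 4 without it.

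A shared DE gene is one that was DE in the pooled comparison, changed by at least 1 log2 unit in the same direction within WT and within KO, and did not overlap between the 4 and 4 libraries. There were 398 of them (3.62% of the genes tested), 174 higher (1.58%) and 224 lower (2.04%). Of the other 121 DE genes, 53 changed by under 1 within WT, 65 by under 1 within KO, and 10 overlapped, some under more than one of these heads. Within each labelled genotype, 526 genes (4.79%) were DE in WT and 524 (4.77%) in KO. Both calls held in the same direction for 384 genes, 73.0% of the WT calls and 73.3% of the KO calls, and in opposite directions for 0. Across all genes tested the 2 log2 fold changes had a Pearson r of 0.80, given as a description because genes are not independent replicates.

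**Figure D1:**
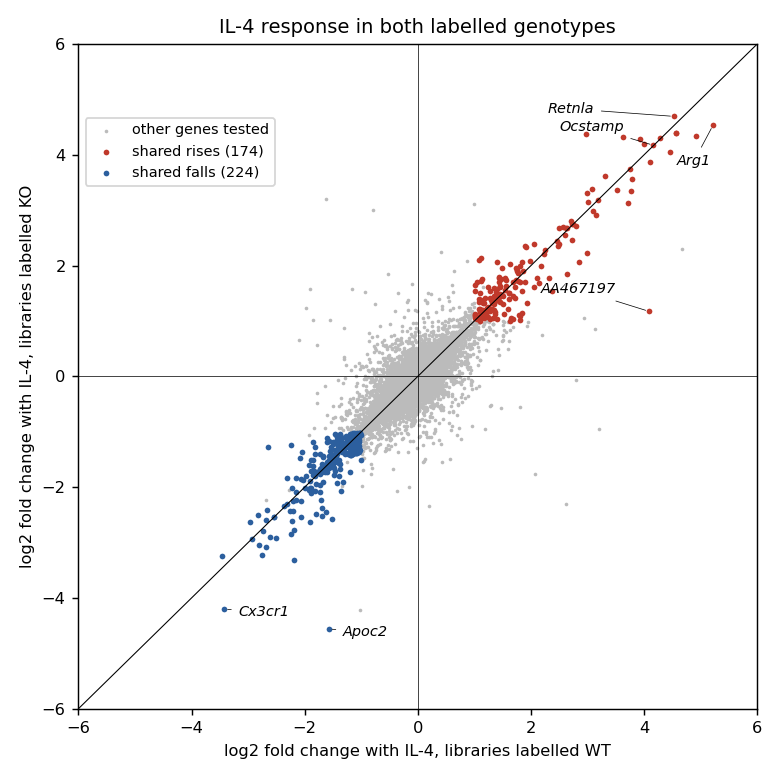
Log2 fold change with IL-4 in the libraries labelled WT (x axis) and KO (y axis), one point per gene tested, with shared rises in red, shared falls in blue and the line of equality in black. The 174 shared rises and 224 shared falls lie along the line, with AA467197 and Apoc2 away from it. Shared genes were chosen by a change in the same direction in both genotypes, which favours this position.

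Among the shared genes the log2 fold changes of the labelled genotypes differed by a median of 0.14, and by under 1 in 389 of 398. This closeness follows in part from the choice of the shared genes, which had to change in the same direction within both genotypes. The test of the difference itself (the interaction of IL-4 with labelled genotype, limma) gave 0 DE genes, with 410 genes at an unadjusted p under 0.05, which is 3.73% of those tested. The 2 soft groups, however, each hold 1 library at each Camkk2 level. Without WT soft 2 and KO soft 1 the interaction gave 5 genes, AA467197, Ccl8, Gm14391, Retnla and Tgoln2, with 834 genes at an unadjusted p under 0.05. Each soft group then holds 1 library, which is assumed to vary like the IL-4 libraries, and only these supply the spread. Gm14391 and Tgoln2 were listed at 0 in WT soft 1 but at 6.71 and 21.9 TPM in WT soft 2, and these 5 calls are not read as differences between the genotypes. AA467197 (Nmes1, a small mitochondrial protein gene) was listed at 0, 0.935, 3.16 and 2.10 TPM in WT soft 1, WT soft 2, KO soft 1 and KO soft 2, and at 23.9, 21.5, 6.04 and 8.33 TPM in the corresponding IL-4 libraries. Its log2 fold change was 4.09 within WT and 1.17 within KO, with an interaction adjusted p of 0.998 in limma over the 8 libraries.

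As a whole the shared genes carried a visible part of each library. The 174 shared rises took 0.493% to 0.549% of the TPM total in the soft libraries and 2.39% to 2.52% in the soft+IL-4 libraries, and the 224 shared falls took 6.16% to 6.86% and 2.49% to 2.70%. Most of the sum of the falls was 1 gene, Lyz2 (lysozyme), at 45850 to 51540 TPM in the soft libraries and 19190 to 21250 TPM with IL-4. Retnla alone held 7096 to 8488 TPM of the rises with IL-4, which summed to 23901 to 25237 TPM. These sums follow from the choice of the genes and are given as a description. Of the 398 genes, 81 were above 100 TPM in their higher condition and 102 under 10 TPM, and 50 rises and 38 falls reached 2 log2 units.

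In what follows, 4 values are given in the order WT 1, WT 2, KO 1, KO 2. Retnla, which encodes the resistin-like protein FIZZ1 (chromosome 16, 48842551 to 48844461, plus strand), was listed at 424, 223, 434 and 242 TPM in the soft libraries and at 7138, 7096, 8488 and 8355 TPM with IL-4. It rose by 4.61 ± 0.21 log2 units (SE, n = 4 against 4, adjusted p = 6.51e-07, limma), to a mean 23.5-fold higher. Among the soft libraries WT soft 1 and KO soft 1 held the higher Retnla, and no soft library came near the IL-4 range.

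Arg1 encodes arginase 1, which splits arginine into ornithine and urea (chromosome 10, 24915221 to 24927484, minus strand). It was listed at 2.43, 1.11, 1.53 and 1.11 TPM in the soft libraries and at 242, 40.3, 70.3 and 39.1 TPM with IL-4. The log2 fold change was 4.87 ± 0.48 (adjusted p = 6.55e-05), the largest among the shared genes, and WT soft+IL-4 1 stood well above the other IL-4 libraries. Without that library the rise remained, and over all alternatives the log2 fold change lay between 4.29 and 5.52.

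Chil3 encodes the chitinase-like protein Ym1 (chromosome 3, 106147554 to 106167564, minus strand). Its values were 110.4, 35.4, 107 and 37.1 TPM without IL-4 and 1926, 1911, 1341 and 1256 TPM with it, a log2 fold change of 4.63 ± 0.38 (adjusted p = 2.23e-05). Here too the soft libraries numbered 1 were the higher ones, and the WT values with IL-4 lay above the KO values. Chil3 has a close copy, Chil4, and reads shared by such copies may have been split between them, so both are uncertain in level. The same holds for the eosinophil-associated ribonuclease genes Ear2 (log2 fold change 4.48 ± 0.29, adjusted p = 4.71e-06) and Rnase2a (4.47 ± 0.20, adjusted p = 5.72e-07).

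The list of secreted and enzymatic effectors of alternative activation had 12 of 16 tested members DE higher and 0 DE lower (1 DE lower without WT soft 2 and KO soft 1), all 12 of them shared, with a median log2 fold change of 2.07 against -0.05 over all genes tested. Besides the genes above it held Il4i1, a secreted amino acid oxidase first found as an IL-4-induced gene, at 18.1, 18.2, 19.8 and 17.1 TPM without IL-4 and 298, 279.7, 382 and 374 TPM with it (4.11 ± 0.08, adjusted p = 1.94e-08). The gene overlaps its neighbour Nup62 in the annotation, so its level is uncertain. Fn1 (fibronectin), Mmp12 and Mmp13 (matrix metalloproteinases), Tfec (a transcription factor of macrophages) and Igf1 rose by 1.04 to 2.59. Cd5l, F13a1, Tgm2 and Ch25h, members of the list that are often cited for alternative activation, were not DE, at log2 fold changes of -1.22, -0.80, 0.39 and 0.51. For the list count, 2.06% of all genes tested were DE higher and 2.67% DE lower.

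**Figure D2:**
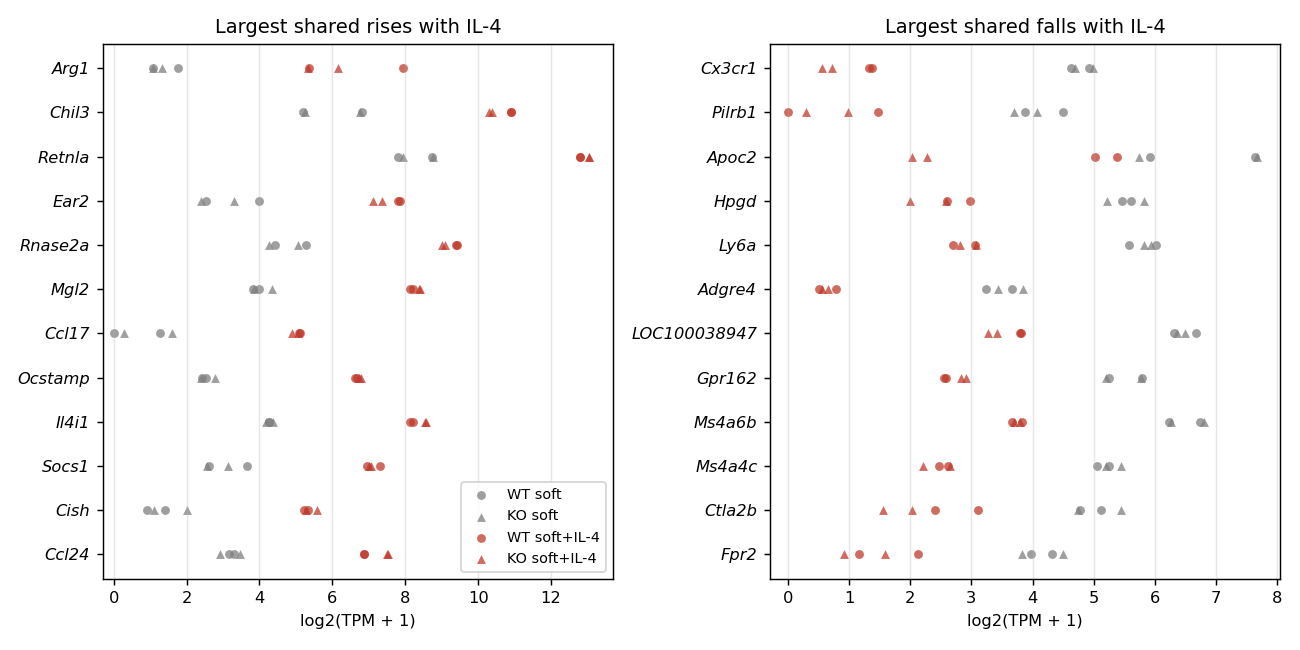
Level of the 12 shared genes with the largest rises (left) and the 12 with the largest falls (right) among those with a mean of at least 10 TPM in the higher condition, as log2(TPM + 1), one point per library. Grey points are soft and red points soft+IL-4 libraries, circles WT and triangles KO. The red and grey points do not overlap in any of the 24 genes, which was a condition of their choice as shared genes. Arg1 has 1 red point apart from the others.

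Of the surface proteins of alternative activation, 7 of 19 were DE higher (6 of them shared) and 1 was DE lower, against 2.06% and 2.67% of all genes tested. The median log2 fold change was 0.85. Mgl2, a galactose-type lectin, was listed at 14.8, 13.2, 19.2 and 13.4 TPM without IL-4 and at 295, 282, 337 and 334 TPM with it (4.29 ± 0.10, adjusted p = 2.10e-08). Pdcd1lg2, which encodes the PD-1 ligand PD-L2, went from 2.40, 1.67, 2.51 and 1.72 TPM to 27.6, 29.9, 36.4 and 37.4 TPM (3.46 ± 0.12, adjusted p = 1.67e-07). In both genes the KO values with IL-4 were the higher pair, but neither interaction passed the test. Mrc1 encodes the mannose receptor CD206 and was listed at 52.7, 86.3, 54.3 and 88.9 TPM without IL-4 and at 179.5, 195, 218 and 217 TPM with it (1.54 ± 0.17, adjusted p = 1.38e-04). Flt1, a VEGF receptor, Tfrc, the transferrin receptor, and Itgb3, an integrin chain, were shared rises of 3.07, 2.76 and 2.13. The fall was in Ccr2, the receptor for Ccl2, from 76.3, 84.0, 78.2 and 90.1 TPM to 28.7, 31.2, 28.2 and 27.4 TPM (-1.48 ± 0.07, adjusted p = 7.37e-07).

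Il4ra, the IL-4 receptor chain, was listed at 28.5, 40.5, 31.7 and 39.8 TPM without IL-4 and at 23.7, 25.5, 28.4 and 29.2 TPM with it, and the libraries overlapped (-0.37 ± 0.11, adjusted p = 3.19e-02). Stat6 went from 103, 112, 114 and 113 TPM to 93.4, 92.4, 98.7 and 94.1 TPM (-0.22 ± 0.05, adjusted p = 4.73e-03), and Il2rg, the common γ chain, changed by -0.33 ± 0.07 (adjusted p = 5.63e-03), in both cases without overlap but far under 1 log2 unit. Jak1 and Jak3 did not pass the test, at -0.08 ± 0.06 (adjusted p = 0.317) and -0.19 ± 0.16 (adjusted p = 0.385). Jak2, a kinase of many other cytokine receptors, rose by 0.81 ± 0.06 (adjusted p = 1.02e-05), from a mean of 15.7 TPM to 28.3 TPM and without overlap. Il13ra1, the chain that pairs with IL-4Rα in the type II receptor, was the DE fall of this list, from 6.04, 8.00, 5.73 and 8.11 TPM to 2.78, 2.30, 1.73 and 2.58 TPM (-1.25 ± 0.15, adjusted p = 2.29e-04).

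The DE rises of the signalling list were all feedback inhibitors of the SOCS family, whose products bind cytokine receptors or JAK kinases and dampen the signal. Socs1 was listed at 11.7, 5.08, 7.76 and 4.87 TPM without IL-4 and at 158, 123, 133 and 127 TPM with it (4.10 ± 0.22, adjusted p = 1.47e-06). Cish went from 0.903, 1.68, 3.02 and 1.15 TPM to 36.4, 39.5, 37.7 and 46.8 TPM (3.99 ± 0.20, adjusted p = 9.16e-07) and Socs2 from 1.31, 0.464, 0.546 and 0.741 TPM to 10.1, 9.77, 10.5 and 8.90 TPM (2.64 ± 0.16, adjusted p = 2.67e-06). Socs3 went the other way, from a mean of 6.47 TPM to 3.07 TPM (-0.88 ± 0.19, adjusted p = 6.08e-03, limma), without overlap but under the fold threshold. In all, 3 of the 22 tested members of the list were DE higher and 1 was DE lower, against 2.06% and 2.67% of all genes tested.

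**Figure D3:**
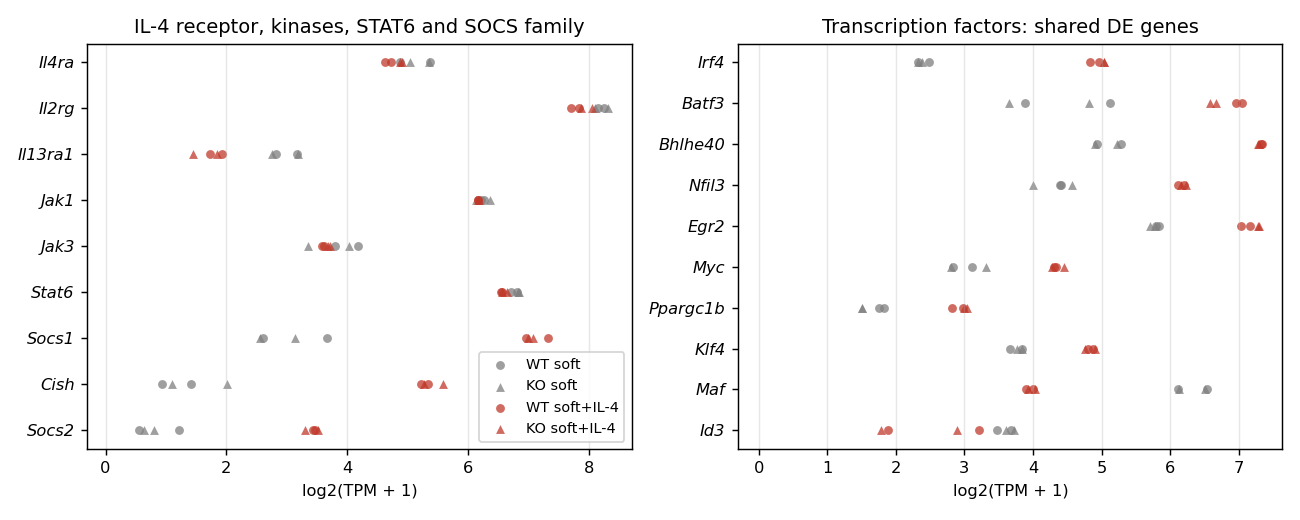
Level in each library, as log2(TPM + 1), of the IL-4 receptor chains, Jak1, Jak3, Stat6 and SOCS genes (left) and of the shared DE transcription factors (right). Grey points are soft and red points soft+IL-4 libraries, circles WT and triangles KO. Il4ra, Jak1 and Jak3 overlap between conditions, while Socs1, Cish and Socs2 and all 10 transcription factors are separated. For these SOCS genes and transcription factors the separation was a condition of their choice as shared genes.

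Among 22 transcription factors of alternative activation, 8 were DE higher and 2 DE lower, all shared, against 2.06% DE higher and 2.67% DE lower over all genes tested. Irf4, a factor known to be induced by IL-4 and needed for M2 gene expression, was listed at 4.605, 3.99, 4.23 and 4.00 TPM without IL-4 and at 27.6, 30.2, 31.8 and 31.7 TPM with it (2.59 ± 0.08, adjusted p = 1.32e-07). Batf3, which is best known from dendritic cells, rose from 33.7, 13.8, 27.2 and 11.6 TPM to 131, 124, 100.2 and 94.8 TPM (2.44 ± 0.29, adjusted p = 1.88e-04), Bhlhe40 by 2.22 ± 0.09 (adjusted p = 3.39e-07) and Nfil3 by 1.84 ± 0.11 (adjusted p = 3.17e-06). Smaller rises were those of Egr2 (1.41), Myc (1.33), Ppargc1b, a coactivator of mitochondrial genes (1.31), and Klf4 (1.06). Pparg, the lipid-sensing nuclear receptor, stayed just under the fold threshold at 0.97, with 51.7 TPM on average without IL-4 and 102 TPM with it.

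Maf encodes the factor c-MAF and went the other way. It was listed at 68.1, 91.6, 69.1 and 89.8 TPM without IL-4 and at 15.02, 13.9, 14.2 and 15.4 TPM with it (-2.35 ± 0.11, adjusted p = 6.55e-07). Id3 fell by 1.17 log2 units (SE 0.30, limma adjusted p = 1.49e-02), with 8.26 and 6.41 TPM in the IL-4 libraries numbered 1 and 2.70 and 2.46 TPM in those numbered 2. Leaving out WT soft+IL-4 2 or KO soft+IL-4 2 took Id3 under 1 log2 unit (-0.94 and -0.92).

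Genes of cell fusion were led by Ocstamp, which encodes a membrane protein needed for osteoclast and giant cell fusion. It was listed at 4.83, 4.37, 5.93 and 4.24 TPM without IL-4 and at 101, 97.5, 105 and 110.0 TPM with it (4.17 ± 0.09, adjusted p = 1.94e-08), with WT and KO log2 fold changes of 4.17 and 4.17. Its partner Dcstamp went from 43.4, 37.6, 44.7 and 36.1 TPM to 133, 131, 127 and 138 TPM (1.69 ± 0.08, adjusted p = 5.72e-07). Cdh1 (E-cadherin) rose by 1.32 from a low level, and Atp6v0d2, a proton pump subunit of osteoclasts, by 1.06. Myo10 was the DE fall of the list, at -1.0, so that 4 of 16 were DE higher and 1 DE lower, against 2.06% and 2.67% of all genes tested.

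In arginine and polyamine metabolism 4 of 20 genes were DE higher and 0 lower, against 2.06% and 2.67% of all genes tested. Slc7a2, a transporter that carries arginine into the cell, was listed at 2.84, 1.33, 3.20 and 1.45 TPM without IL-4 and at 39.5, 37.1, 27.4 and 26.5 TPM with it (3.42 ± 0.22, adjusted p = 3.95e-06). Gatm, which makes the creatine precursor from arginine, and Srm, the spermidine synthase gene, rose by 1.62 and 1.02. Odc1, which turns ornithine into putrescine, was at 0.58 and not DE. Nos2, the inducible nitric oxide synthase of classical activation, was at 0.305, 0.134, 0.181 and 0.190 TPM without IL-4 and at 1.99, 1.22, 0.954 and 0.817 TPM with it (0.87 ± 0.18, adjusted p = 5.03e-03). With a pseudocount of 0.1 in place of 1 its log2 fold change was 2.11 and it was DE, at a level that remained under 2 TPM.

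Of 14 CC chemokine ligands 7 were DE higher (6 without WT soft 2 and KO soft 1) and 0 lower, with a median log2 fold change of 0.94. Ccl17, a ligand of CCR4 on T cells, was listed at 1.4, 0, 2.04 and 0.219 TPM without IL-4 and at 32.9, 33.3, 32.6 and 28.9 TPM with it (4.25 ± 0.32, adjusted p = 1.29e-05). Ccl24, the eosinophil attractant eotaxin-2, went from 7.94, 8.92, 6.50 and 10.0 TPM to 115, 116, 179.5 and 183 TPM (3.98 ± 0.16, adjusted p = 3.01e-07). The other ligand of CCR4, Ccl22, rose by 3.55, and the monocyte attractants Ccl8, Ccl7, Ccl2 and Ccl12 by 3.75, 2.74, 1.63 and 1.27. Ccl8 varied widely among the soft libraries, at 0.708, 6.57, 2.41 and 9.71 TPM without IL-4 and 50.4, 44.7, 78.2 and 82.6 TPM with it. Ccl3, Ccl4 and Ccl5 were at -0.65, -0.20 and -0.19, of which Ccl3 passed the adjusted p. For the list count, 2.06% of all genes tested were DE higher and 2.67% DE lower.

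Of 17 chemokine and chemoattractant receptors 8 were DE lower, all shared, and 1 was DE higher (Ccr7, 1.13), with a median log2 fold change of -0.92. At any size of change 14 passed the adjusted p lower and 2 higher (Ccr7 and Ccr1), against 20.3% and 15.6% of all genes tested. Cx3cr1, the fractalkine receptor of monocytes and resident macrophages, had the largest fall among the shared genes, from 23.8, 29.4, 24.9 and 30.6 TPM to 1.60, 1.52, 0.474 and 0.644 TPM (-3.81 ± 0.17, adjusted p = 5.40e-07). Fpr2, a formyl peptide receptor, went from 14.7, 19.0, 13.2 and 21.7 TPM to 3.34, 1.23, 0.885 and 1.98 TPM (-2.71 ± 0.26, adjusted p = 4.98e-05). Fpr1, Cxcr3, S1pr1, Ccrl2 and the complement receptor C5ar1 had log2 fold changes from -2.03 to -1.51.

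Of 15 inflammatory cytokines and CXC chemokines 9 were DE lower (8 without WT soft 2 and KO soft 1), 6 of them shared, and 0 were DE higher. The median log2 fold change was -1.09. At any size of change 12 passed the adjusted p lower and 1 higher (Nos2, above), against 20.3% and 15.6% of all genes tested. Cxcl10, an interferon-induced attractant of T cells, was listed at 19.6, 24.0, 19.5 and 20.3 TPM without IL-4 and at 8.64, 4.10, 2.29 and 3.07 TPM with it (-2.10 ± 0.23, adjusted p = 1.10e-04). Cxcl1, a neutrophil attractant, was at 3.39, 3.50, 3.45 and 4.22 TPM without IL-4 and at 0, 0.255, 0 and 0.429 TPM with it (-2.0 ± 0.17, adjusted p = 2.36e-05). Nlrp3 (the inflammasome sensor), Cxcl2, Il1b and Tnf were also lower (log2 fold changes -1.95, -1.89, -1.63 and -1.09). Il10 (-1.13), an anti-inflammatory cytokine of the same list, was DE lower too, at 2.93 TPM on average without IL-4 and 0.956 TPM with it. Its libraries overlapped, with log2 fold changes of -1.78 within WT and -0.49 within KO, so it was not shared.

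Cd14, which hands lipopolysaccharide to TLR4, was listed at 734, 827, 726 and 808 TPM without IL-4 and at 161, 152, 154 and 155 TPM with it (-2.31 ± 0.05, adjusted p = 2.14e-08). Tlr2, a sensor of bacterial lipoproteins, went from 86.8, 100.4, 87.2 and 105 TPM to 19.4, 20.9, 18.9 and 20.1 TPM (-2.20 ± 0.08, adjusted p = 1.60e-07). In both genes the spread within a condition was small beside the step between the conditions. Tlr9, Tlr7 and Tlr13, sensors of nucleic acids, were lower too (-1.41, -1.05 and -1.04), and Tlr4 was at 0.34. Of the 18 Toll-like receptors and co-receptors, 5 were DE lower, against 2.67% of all genes tested. After median-of-ratios scaling 3 were DE lower, with Tlr7 and Tlr13 closest to the fold threshold.

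Interferon-stimulated genes, which restrain viruses and intracellular microbes, shifted down as a group. Of 71 tested, 19 were DE lower (17 shared, and 21 DE lower without WT soft 2 and KO soft 1) and 1 DE higher (Gbp2, 1.08), and at any size of change 56 passed the adjusted p lower and 4 higher, against 20.3% and 15.6% of all genes. The median log2 fold change was -0.71. Ifit3b, an antiviral protein gene with the close copy Ifit3, was listed at 12.4, 11.3, 11.6 and 9.38 TPM without IL-4 and at 0.699, 0.957, 1.28 and 0.791 TPM with it (-2.66 ± 0.14, adjusted p = 1.13e-06). Ms4a4c, a membrane protein gene of a cluster of similar genes, went from 37.1, 32.1, 42.7 and 35.8 TPM to 4.51, 5.15, 5.29 and 3.60 TPM (-2.75 ± 0.12, adjusted p = 5.72e-07). Irf7, the master factor of type I interferon genes, was at a log2 fold change of -1.77, Oas2 at -1.60 and Mx1 at -1.27, whereas Irf1 was at 0.22.

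Motifs of the factors that act downstream of IL-4 and of interferon were looked for in RefSeq promoters (GRCm38.p6, 250 bases before to 50 after each annotated start, both strands). The promoter table matched 127 of the 174 shared rises (163 windows), 161 of the 224 shared falls (194 windows) and 8457 of the genes tested (10774 windows). The STAT6-type palindrome, TTC and GAA with 4 bases between them, was in 7.98% of the windows of rises, 6.19% of those of falls and 5.44% of those of all genes tested, and in 6.95% of all promoters of the table. The related palindrome with 3 bases between TTC and GAA was in 7.36%, 7.22% and 6.82%, and in 8.30% of the table. The core of the interferon-stimulated response element, GAAA and GAAA with 2 bases between them, was in 4.29% of the windows of rises, 13.4% of those of falls (26 of 194) and 3.29% of those of all genes tested, and in 3.44% of the table. A window can hold more than one of these motifs, and matches may overlap. These shares were not tested, and a match describes letters, not binding.

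5 promoters are shown as examples, chosen as rises that hold a palindrome and falls that hold the interferon-stimulated core, with the matches in capitals and written 5′ to 3′ along the gene. Retnla (chr16:48842359-48842658, plus strand) and Pdcd1lg2 (chr19:29410669-29410968, plus strand) each hold 1 palindrome with 4 spaced bases, 145 and 82 bases before the start, and Ccl17 (chr8:94810203-94810502, plus strand) holds 1 with 4 spaced bases 154 bases before it and 1 with 3 spaced bases 99 bases before it. Cxcl10 (chr5:92348840-92349139, minus strand) holds the interferon-stimulated core 213 bases before the start, and Ifit3b (chr19:34607707-34608006, plus strand) holds it on the other strand 188 and 154 bases before the start. Other genes described here held the motifs the other way round, the rise Socs1 with 2 interferon-stimulated cores and the falls Fpr2, Ms4a6b and Sirpb1a with 1 palindrome each.
Retnla: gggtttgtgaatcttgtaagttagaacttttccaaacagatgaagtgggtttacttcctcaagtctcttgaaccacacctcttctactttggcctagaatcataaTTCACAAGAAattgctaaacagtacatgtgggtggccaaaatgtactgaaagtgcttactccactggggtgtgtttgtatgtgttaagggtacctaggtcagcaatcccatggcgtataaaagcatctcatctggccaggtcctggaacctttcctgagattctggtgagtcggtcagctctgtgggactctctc
Pdcd1lg2: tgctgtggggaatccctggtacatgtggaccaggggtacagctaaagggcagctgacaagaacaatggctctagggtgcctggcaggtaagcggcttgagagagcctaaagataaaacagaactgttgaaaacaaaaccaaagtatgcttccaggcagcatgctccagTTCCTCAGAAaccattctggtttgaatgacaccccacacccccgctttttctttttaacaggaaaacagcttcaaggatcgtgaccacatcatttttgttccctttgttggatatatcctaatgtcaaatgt
Ccl17: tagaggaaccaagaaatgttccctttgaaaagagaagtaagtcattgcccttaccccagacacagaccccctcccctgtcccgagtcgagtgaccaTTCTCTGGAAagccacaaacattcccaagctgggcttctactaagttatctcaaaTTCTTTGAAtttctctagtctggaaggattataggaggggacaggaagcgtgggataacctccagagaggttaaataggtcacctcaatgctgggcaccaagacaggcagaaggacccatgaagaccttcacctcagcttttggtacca
Cxcl10: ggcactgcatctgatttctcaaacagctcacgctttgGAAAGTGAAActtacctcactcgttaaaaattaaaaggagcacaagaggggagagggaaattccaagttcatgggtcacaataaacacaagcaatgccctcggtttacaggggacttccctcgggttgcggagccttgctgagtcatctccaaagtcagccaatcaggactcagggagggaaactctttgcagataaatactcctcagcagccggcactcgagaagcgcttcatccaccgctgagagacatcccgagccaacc
Ifit3b: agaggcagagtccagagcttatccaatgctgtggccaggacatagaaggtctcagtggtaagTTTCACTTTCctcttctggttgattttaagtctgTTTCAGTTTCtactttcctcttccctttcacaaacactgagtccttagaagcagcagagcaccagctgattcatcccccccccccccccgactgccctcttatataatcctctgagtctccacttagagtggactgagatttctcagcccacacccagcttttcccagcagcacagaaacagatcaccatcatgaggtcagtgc

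Fc receptors and paired immunoglobulin-like receptors, which set the threshold of myeloid activation, had 12 of 22 members DE lower and 0 higher. Over all genes tested 2.67% were DE lower and 2.06% higher. The median log2 fold change of the list was -1.08. At any size of change 16 members passed the adjusted p lower and 3 higher, against 20.3% and 15.6% of all genes tested. Pilrb1, an activating receptor with the close copies Pilrb2 and Pilra, was listed at 21.7, 13.7, 11.95 and 15.8 TPM without IL-4 and at 0, 1.77, 0.220 and 0.972 TPM with it (-3.35 ± 0.31, adjusted p = 4.64e-05). Sirpb1a, which also has near copies, went from 27.2, 18.5, 17.3 and 20.5 TPM to 2.93, 2.51, 2.23 and 3.25 TPM (-2.54 ± 0.15, adjusted p = 2.34e-06). Fcgr1, the high-affinity IgG receptor gene, and the C-type lectin gene Clec4e had log2 fold changes of -2.42 and -2.16. The inhibitory IgG receptor gene Fcgr2b was at 0.95.

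Of 21 genes of efferocytosis and complement, 4 were DE lower and 1 DE higher, against 2.67% and 2.06% of all genes tested. Stab1, a scavenger receptor gene, was at 77.1, 139, 77.2 and 140.3 TPM without IL-4 and at 22.8, 22.0, 28.8 and 28.3 TPM with it (-1.997 ± 0.21, adjusted p = 9.99e-05), and WT soft 1 and KO soft 1, which share the number and the higher Camkk2 level, were the lower pair of the soft libraries. The TAM receptor ligand Gas6 and receptor Axl were at log2 fold changes of -1.26 and -1.09. Itgax, which encodes the integrin CD11c, rose from 141, 125, 139 and 131 TPM to 622, 639, 662 and 661 TPM (2.26 ± 0.05, adjusted p = 1.94e-08). Of 15 genes of MHC class II presentation 1 was DE, a fall of the co-stimulatory gene Cd86 (-1.16). Ifi30, a lysosomal thiol reductase gene, and the peptide loading genes H2-DMa and H2-DMb1 rose by 0.85, 0.53 and 0.47 (adjusted p = 1.19e-04, 1.16e-02 and 3.13e-03 in limma) without overlap. H2-Aa, H2-Ab1 and Cd74 did not pass the test, at -0.00, 0.13 and 0.31.

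Several other large falls lie outside these lists. Hpgd, which degrades prostaglandins, was listed at 43.1, 47.8, 36.0 and 55.9 TPM without IL-4 and at 6.84, 5.04, 5.02 and 3.01 TPM with it (-2.99 ± 0.19, adjusted p = 3.65e-06). Apoc2, an activator of lipoprotein lipase, was at 199, 59.3, 203 and 52.6 TPM without IL-4 and at 40.7, 31.5, 3.07 and 3.84 TPM with it (-3.07 ± 0.67, adjusted p = 6.20e-03). It fell by 1.58 on the log2 scale within WT and by 4.56 within KO, the widest gap among the shared genes, and its interaction did not pass (unadjusted p = 0.0124 in limma). Ly6a, Adgre4, LOC100038947, Gpr162, Ms4a6b and Ctla2b had log2 fold changes of -2.93, -2.92, -2.88, -2.79, -2.77 and -2.75, each without overlap, and of these LOC100038947, Ms4a6b and Ctla2b have near copies that make their levels uncertain.

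**Figure D4:**
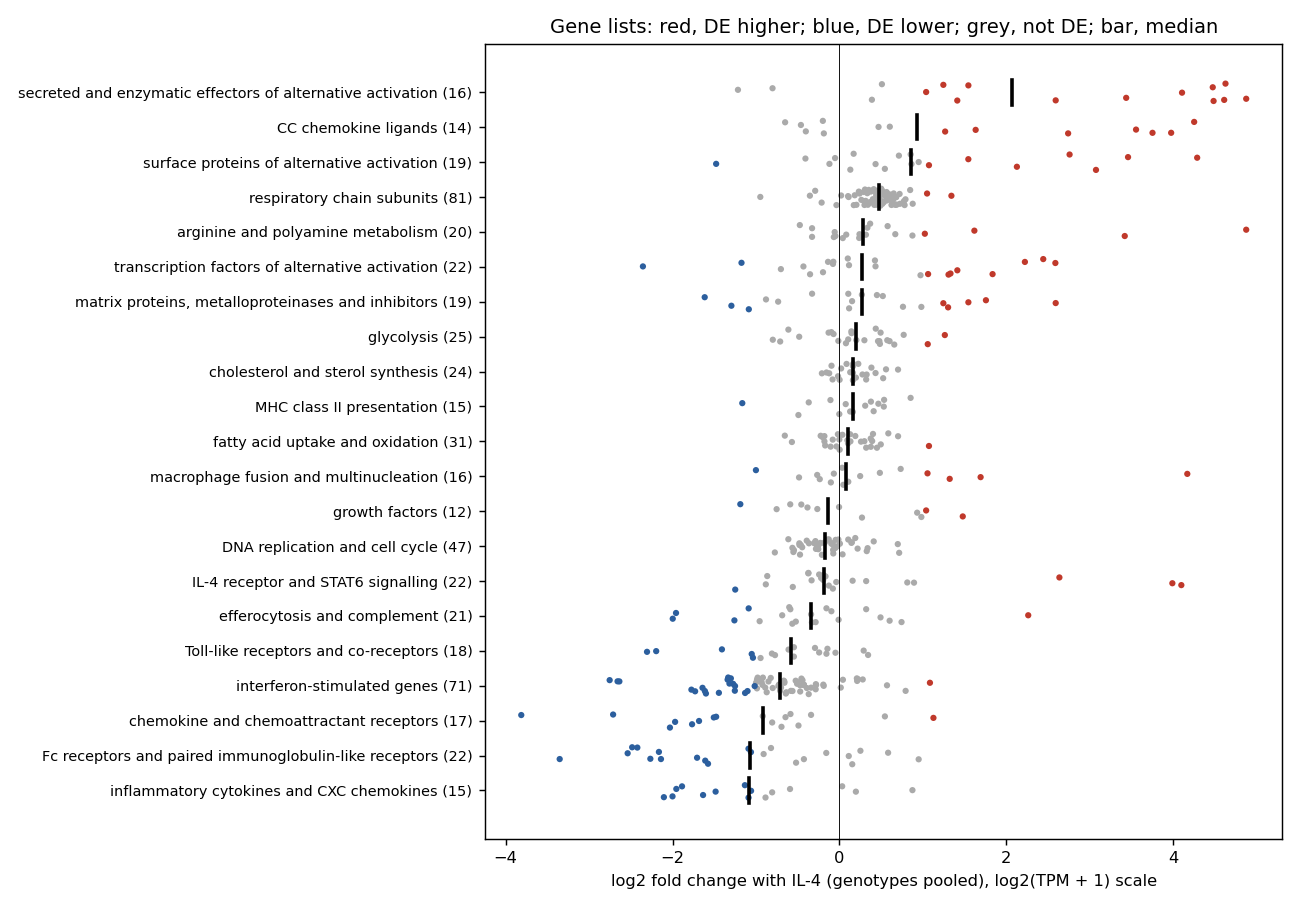
Log2 fold change with IL-4 of every tested member of 21 gene lists, one point per gene, ordered by the median of the list (black bar), with the number of tested members in brackets. Red points are DE higher, blue points DE lower and grey points not DE. Secreted effectors and CC chemokine ligands lie highest, with medians of 2.07 and 0.94, and inflammatory cytokines and CXC chemokines lowest at -1.09.

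Matrix genes moved both ways, with 5 of 19 DE higher and 3 DE lower, against 2.06% and 2.67% of all genes tested. Fn1 was listed at 11.03, 11.2, 12.6 and 10.1 TPM without IL-4 and at 82.9, 75.7, 68.5 and 64.9 TPM with it (2.59 ± 0.09, adjusted p = 1.38e-07), and the metalloproteinase gene Mmp19 at 25.9, 28.7, 31.6 and 31.2 TPM and at 96.1, 99.3, 102 and 108 TPM (1.76 ± 0.05, adjusted p = 1.32e-07). Thbs1 (thrombospondin 1), Mmp14 and Tgfbi had log2 fold changes of -1.61, -1.29 and -1.09. Of 12 growth factors, Igf1 rose from 149, 150.0, 164 and 156 TPM to 313, 304, 332 and 327 TPM (1.04 ± 0.04, adjusted p = 1.85e-07) and Hbegf by 1.48, while Vegfa fell by 1.19 log2 units (SE 0.16, limma adjusted p = 4.33e-04). Without WT soft 2 and KO soft 1, 4 growth factors in place of 2 were DE higher. In a model of all 12 libraries, Thbs1, Vegfa, Id3 and Dcstamp no longer passed (adjusted p = 0.193, 0.17, 0.297 and 0.0853 in limma).

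Metabolic genes changed by small amounts. Pfkp, a phosphofructokinase of glycolysis, went from 40.9, 37.1, 42.5 and 35.7 TPM to 98.4, 96.7, 97.9 and 86.9 TPM (1.26 ± 0.07, adjusted p = 1.98e-06), and it and the lactate transporter gene Slc16a1 (1.06) were the DE genes among 25 of glycolysis, of which 14 passed the adjusted p higher and 4 lower at any size. Of 31 genes of fatty acid uptake and oxidation 1 was DE, the fatty acid transporter Cd36 (1.07), and 10 passed higher and 3 lower at any size. Cholesterol synthesis had 0 of 24 DE in limma, and 11 passed higher and 1 lower at any size. Over all genes tested 15.6% passed higher and 20.3% lower. DNA replication and cell cycle had 0 of 47 DE, with 4 that passed higher and 9 lower, and a median log2 fold change of -0.17.

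Subunits of the respiratory chain, which couples electron transport to ATP synthesis in mitochondria, shifted up together by a small step. Of 81 genes in the list 2 were DE (Cox7a1 and Cox6a2, or 1 without WT soft 2 and KO soft 1), but 70 passed the adjusted p higher and 2 lower at any size, against 15.6% and 20.3% of all genes tested. In 69 genes the IL-4 libraries all lay above the soft libraries, which is the case for 15.9% of all genes. The median log2 fold change was 0.48, and by complex it was 0.46 for complex I (29 of 36 higher), 0.44 for complex II (4 of 4), 0.51 for complex III (9 of 9), 0.58 for complex IV (12 of 14) and 0.59 for ATP synthase by symbol (15 of 17). Cycs, cytochrome c, was at 0.78. The pattern was noticed in these data before the list was written, so its count is a description. The number higher was 70 after median-of-ratios scaling and 70 without WT soft 2 and KO soft 1, and 67 to 72 with each library left out. Cox7a1, a complex IV subunit best known from muscle, was listed at 23.1, 9.10, 7.23 and 24.9 TPM without IL-4 and at 38.7, 37.5, 30.1 and 44.0 TPM with it (1.34 ± 0.36, adjusted p = 1.79e-02). It dropped to 0.61 without WT soft 2 and KO soft 1, whose values are the 2 lowest.

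**Figure D5:**
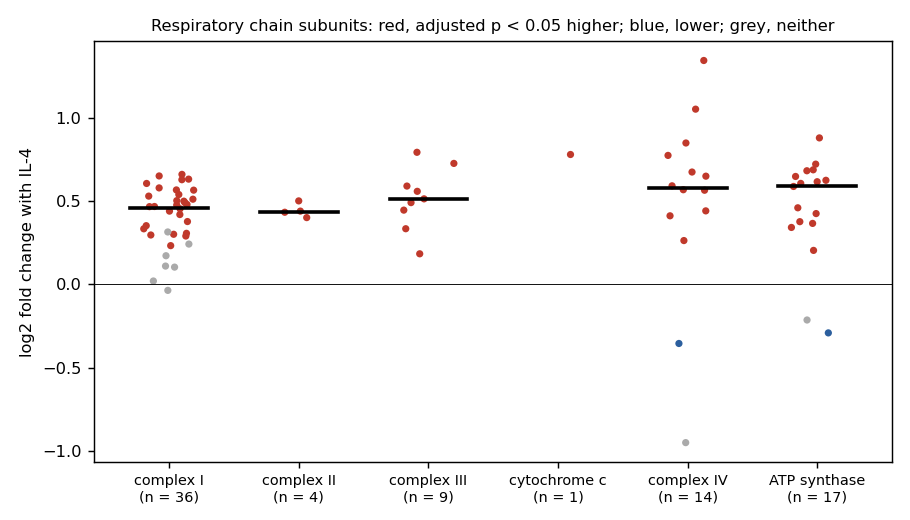
Log2 fold change with IL-4 of the tested respiratory chain genes by complex, one point per gene, with the median as a black bar. Red points passed an adjusted p under 0.05 higher, blue points lower and grey points neither. Most points lie between 0 and 1, with complex medians of 0.44 to 0.59.

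Markers of other cells were read beside these results. The summed level of 10 dendritic cell markers was 146.1 to 179.9 TPM without IL-4 and 766.7 to 776.9 TPM with it, with 3 of the 6 tested DE higher. The rise lay in Itgax, Batf3 and Ccr7. Of the other markers of the list, Xcr1, Clec9a and Dpp4 were under 1 TPM in all 8 libraries. Flt3 and Zbtb46 did not exceed 1.53 TPM, and Cd209a and Siglech did not exceed 2.56 TPM. The summed level of 10 macrophage markers went from 52560 to 59600 TPM without IL-4 to 24660 to 26360 TPM with it. Most of this sum was Lyz2 (lysozyme), at 45850 to 51540 TPM and 19190 to 21250 TPM. Of the 10, 4 were DE lower and 0 higher. At any size of change 8 of them passed the adjusted p lower and 1 higher, against 20.3% and 15.6% of all genes tested. B cell markers summed to 74.2 to 104.7 and 120.8 to 137.9 TPM, through Blnk, with Cd79a, Ms4a1 and Pax5 under 1 TPM in all 8 libraries. The 2 erythroid markers in the table summed to 0.939 to 1.74 and 6.84 to 11.5 TPM, through Car2, with Klf1 under 1 TPM. The sums for neutrophils (92.3 to 117 and 102 to 127 TPM) overlapped between the conditions, as did those for eosinophils (5.18 to 7.67 and 4.81 to 9.05 TPM), mast cells or basophils (1.26 to 1.97 and 0.532 to 2.96 TPM) and fibroblasts (1.04 to 1.66 and 0.301 to 1.42 TPM), and T or NK cell markers summed to 1.71 to 2.58 and 0.431 to 0.935 TPM. The part of the dendritic, macrophage, B cell, erythroid and T or NK cell markers in the results was not tested.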

How the data were processed

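RNA of 12 mouse BMDM libraries was sequenced as stranded poly-A libraries, and the 8 from the soft matrix were compared here, grouped by the sample labels. The authors deposited TPM values for 14098 genes, in which reads are divided by gene length and scaled to 1000000 per library. Per the labels, the submitters' processing notes name Trim Galore 0.6.7, Salmon 1.4.0 and the build mm10, and the deposited TPM values carry the name of Salmon. The paper's methods name STAR and featureCounts. The counts tested in the paper and the values used here may thus differ in how shared reads were assigned. TPM keeps no counts, so depth and counting error are unknown and no count model was used.

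The 10983 genes that reached 1 TPM in 2 or more of the 8 libraries entered the test, which used limma 3.58.1 (R 4.3.3) on log2(TPM + 1) values (genotype block, eBayes with a variance trend), and p-values were adjusted by Benjamini-Hochberg over all genes tested. The interaction came from a model of the 4 group means. With 2 libraries in a group, p-values measure the spread between these libraries. On simulated data for the pooled comparison (10826 genes), 199 of 200 changed genes (99.5%) were recovered and 1 unchanged gene was called. These counts describe the simulated data alone. The share of changed genes recovered in the 8 libraries themselves was not tested.

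Named genes are the 12 largest shared rises and falls with a mean of at least 10 TPM, the 2 largest shared rises and falls of each list, all shared genes of the signalling and transcription factor lists, 10 fixed genes, the 6 smallest interaction p-values and Camkk2. Other genes were picked with their values known. The comparison, its members and the 21 gene lists and 9 marker lists were chosen with earlier results of these data known. Of the list genes, 5 were matched by a RefSeq synonym. Coordinates are from GENCODE vM21 (GRCm38), which holds 69 of the 71 named genes. The alternatives were another pseudocount, filter, scaling, block, variance trend, threshold or set of libraries. List counts under median-of-ratios scaling and the respiratory chain settings were added after seeing the data. A few genes are not reported here.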

Additional observations from a re-analysis of the deposited data

Results flagged for a closer look

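In 5 of 142 groups of 4 libraries examined for the named genes, 1 library lay far from the other libraries of its condition relative to the range of the group, where chance alone gives such a gap in about 1 group in 20. Arg1 was at 242 TPM in WT soft+IL-4 1, with the next IL-4 library at 70.3 TPM. Ccl17 was lowest in KO soft+IL-4 2 at 28.9 TPM, with the next at 32.6 TPM. Cxcl10 was highest in WT soft 2 at 24.0 TPM, with the next soft library at 20.3 TPM. Cxcl1 was highest in KO soft 2 at 4.22 TPM, with the next at 3.50 TPM. Pfkp was lowest in KO soft+IL-4 2 at 86.9 TPM, with the next at 96.7 TPM. In each case the library stayed on the same side of all libraries of the other condition.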

How the results depend on the processing

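The pooled count of 519 DE genes stayed within 1.5 times under every alternative except the stricter fold threshold of 2 log2 units, which left 89 DE genes and 72 of the 398 shared ones. With each library left out the pooled count was 512 to 564, the shared count 365 to 452, and 353 to 386 of the 398 shared genes remained shared. The interaction, at 0 genes, gave 0 to 4 with one library left out (4 without WT soft 2) and 5 without WT soft 2 and KO soft 1, where a group left with 1 library is assumed to vary like the others. In this last setting 393 of the 398 shared genes were still DE. Same-numbered libraries of WT soft and KO soft deviated together across genes (correlation of deviations 0.33). In the other pairs of groups this correlation was -0.03 to 0.06. The replicate block gave 525 DE, 398 shared and 0 interaction genes. Median-of-ratios scaling moved the median of all genes from -0.05 to 0.00 and the share of higher calls from 43.5% to 49.5%. With each library left out in turn, 3 genes far from any call changed sign: 1700021F05Rik ranged from -0.022 (WT soft+IL-4 1 left out, with -0.0092 without WT soft 1) to 0.25, Mrpl9 from -0.060 (WT soft 1 left out, with -0.047 and -0.0037 without WT soft+IL-4 1 or 2) to 0.16, and Camkk2 from -0.91 to 0.15 (KO soft 1 left out). The cause of these changes was not tested. Depth is unknown, so precision for genes under a few TPM cannot be given.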

Other observations

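The stiff libraries, which took no part in the comparison of the soft libraries, gave the following values for the same genes. The 174 shared rises took 5.60% and 2.42% of the TPM total in WT stiff 1 and 2 and 0.991% and 0.947% in KO stiff 1 and 2, and the 224 shared falls took 2.65% and 2.62% in WT stiff and 5.39% and 5.70% in KO stiff. Arg1 was listed at 8850.2 TPM in WT stiff 1 and 42.6 TPM in WT stiff 2, while Ocstamp was at 8.91 and 93.6 TPM and Itgax at 171 and 627 TPM in the same libraries. Across all genes the library labelled WT stiff 2 had a Pearson r of 0.9963 with WT soft+IL-4 2, above the 0.9881 between the 2 WT soft+IL-4 libraries.

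Of the genes with the smallest interaction p over the 8 libraries (adjusted p = 0.998 each in limma), Mrpl9, a mitochondrial ribosomal protein gene, was listed at 28.1, 31.8, 38.6 and 34.4 TPM without IL-4 and at 42.1, 39.0, 28.6 and 29.1 TPM with it, in the order WT 1, WT 2, KO 1, KO 2. Ccl5, a CC chemokine ligand, was at 194, 178, 186 and 178 TPM without IL-4 and at 127, 138, 212 and 184 TPM with it. Ndufs5 and SlcUbl4a had log2 fold changes of -0.19 and -0.04 within WT and 0.82 and 1.20 within KO.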
